A study of Rattus norvegicus with 8 samples.

Results

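RNA from the livers of male Sprague-Dawley rats, all adult, was compared, array by array, with the reference RNA hybridised to the same spots. All 8 arrays of the series as analysed here entered the comparison, so that 8 liver measurements in the Cy5 channel stood against 8 reference measurements in the Cy3 channel. Of these arrays, 4 carried liver of control rats, whose dams had received corn oil, and 4 carried liver of AhR rats, whose dams had received a mixture of agonists of the aryl hydrocarbon receptor (AhR; non-ortho polychlorinated biphenyls, dioxins and furans) at 1.8 ng of dioxin toxic equivalents per kg per day. Dosing ran from gestation day 0 to postnatal day 20, no litter of either group was cross-fostered, and livers were taken at 78 to 86 days of age. The liver RNA on an array was pooled from 2 rats, and the labels do not say whether pools shared a litter, so p-values measure only the spread between these pools. The Cy3 channel held 1 commercial universal rat reference RNA, which the labels describe as coming from 14 rat cell lines. No dyes were swapped, so every ratio of liver over reference is open to dye bias, and the spread of the reference itself is not part of any test. The comparison asks which tissues and life stages the reference RNA represents and which transcripts mark the adult liver against it.

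Hepatocytes make most plasma proteins, among them albumin, apolipoproteins and clotting factors, and hold enzymes of drug, steroid and bile acid metabolism. Before birth the liver makes alpha-fetoprotein and houses blood formation, and imprinted growth genes such as Igf2 and H19 are active there until they are silenced after birth. In the adult rat, the pattern of pituitary growth hormone release sets male- and female-predominant liver genes, of which the cytochrome P450 gene Cyp2c11 is the classical male example. Skeletal muscle is recognised by contractile proteins such as Tnnc2, the fast troponin C, which the liver does not use.

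The upstream DNA of 4 genes that stand at different places in this comparison is shown first, because their ratios open the results: Alb and Afp, neighbouring genes of which one is used in the adult and the other in the fetal liver, Sult2a6, a hydroxysteroid sulfotransferase gene that was far lower in liver than in the reference, and Cyp2c11, which was higher. Each line gives 150 bases, from 180 to 31 bases before the annotated start of the gene, from RefSeq on assembly GRCr8, read 5′ to 3′ on the strand of the gene. Capitals mark matches to GTTAATNAT, searched on both strands; GTTAAT is the half-site bound by the hepatocyte factor HNF1. The motif was picked after the sequences had been seen.
Alb: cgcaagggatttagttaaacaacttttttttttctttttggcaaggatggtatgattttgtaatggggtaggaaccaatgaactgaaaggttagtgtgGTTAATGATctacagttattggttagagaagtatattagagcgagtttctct
Afp: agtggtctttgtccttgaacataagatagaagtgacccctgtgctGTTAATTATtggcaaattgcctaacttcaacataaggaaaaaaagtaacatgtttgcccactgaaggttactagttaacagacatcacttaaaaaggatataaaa
Sult2a6: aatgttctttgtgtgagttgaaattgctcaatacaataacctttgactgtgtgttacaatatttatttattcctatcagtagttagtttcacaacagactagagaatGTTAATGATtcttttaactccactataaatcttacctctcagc
Cyp2c11: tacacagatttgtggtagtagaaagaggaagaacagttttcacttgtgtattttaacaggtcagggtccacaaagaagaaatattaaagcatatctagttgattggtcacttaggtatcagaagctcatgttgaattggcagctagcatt
The windows lie at chr14:17907010-17907159 (minus strand) for Alb, chr14:17875676-17875825 (minus) for Afp, chr1:84097839-84097988 (minus) for Sult2a6 and chr1:246175036-246175185 (plus) for Cyp2c11. The match begins 82 bases before the start in Alb, 135 in Afp and 73 in Sult2a6, and the letters are not in the Cyp2c11 window. Of 33469 upstream windows of this length, 149 (0.445%) hold the motif. A match is a description of letters, and it was shared by a gene with near-equal signal in both channels and by genes lower in liver.

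The Cy3 channel carried the markers of adult hepatocytes, beside its label of 14 cell lines. Across 19276 probes, its log2 signal correlated with the adult liver of the same array at r = 0.991 to 0.992, against at least 0.997 between Cy3 channels and at least 0.991 between Cy5 channels of different arrays. The rank correlation of the raw signals of an array was 0.968 to 0.976. All of the 20 hepatocyte markers were well above background in Cy3 on all 8 arrays, as were 17 of 18 fast skeletal muscle, 17 of 17 cell cycle, 7 of 8 smooth muscle, 8 of 12 exocrine pancreas and 5 of 7 keratinocyte genes. Of 15 neuron and 7 placenta markers, 0 were. Over all 15154 named genes, 65.2% were. The channel is called the reference channel below because the labels call it so, and the source of its RNA was not tested. Between 56.2% and 62.0% of probes were well above background in Cy5 and between 58.3% and 66.8% in Cy3 on an array, and no probe was saturated. For spike-in controls of known ratio, the scanner software recorded a slope of observed on expected log ratio between 0.925 and 0.940, with r of 0.991 to 0.997.

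Most transcripts had nearly the same ratio. A ratio here is log2 of liver over reference after normalization, so that 0 is the level of the bulk of probes of similar brightness on the array. A gene is represented by its brightest kept probe. Of the 19276 probes tested, 97.3% lay within 1.5-fold and 99.1% within 2-fold of 0. A transcript was called where limma's adjusted p was under 0.05 and the mean ratio was at least 2-fold. By this rule 1 of 10701 genes was higher in liver (0.00934%) and 130 were lower (1.21%). Without the fold limit, 1046 genes (9.77%) were higher and 1484 (13.9%) were lower; a gene that meets only this second rule is said below to have passed the test. Direction near 0 depends on the scaling. With each array centred on its median in place of loess, the median was 0.09 over all probes and 0.29 over the brightest decile. Among probes, the calls were 1 higher and 169 lower (0.00519% and 0.877%), and they were 44 and 150 with median centring in place of loess, 40 and 513 with the scanner's processed signals, and 302 and 92 with no dye normalization, where the median of all probes moved to 0.44.

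**Figure D1:**
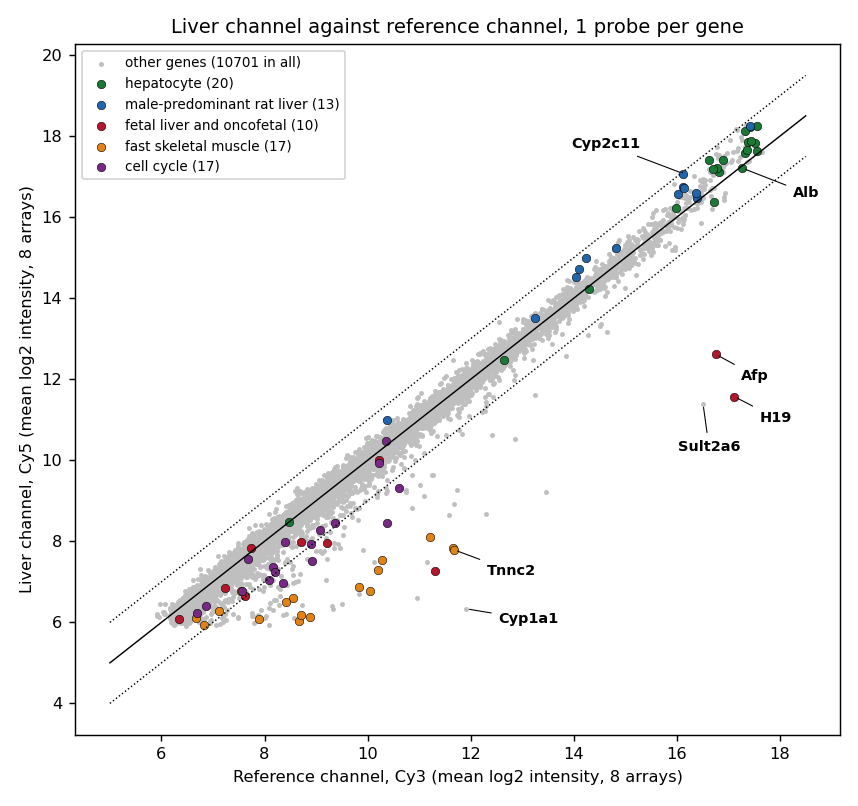
Mean log2 intensity of each gene in the liver channel (Cy5, vertical) against the reference channel (Cy3, horizontal), averaged over 8 arrays, 1 point per gene, with 5 gene lists in colour; the solid line marks equal signal and the dotted lines 2-fold. Hepatocyte genes lie at the bright end near the solid line, while H19, Afp, Sult2a6 and Cyp1a1 lie far below the lower dotted line. Of the 17 fast skeletal muscle genes, 13 were called lower by at least 2-fold, and the others lie nearer the solid line.

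Serum albumin RNA was prominent in both channels. The Alb probe (NM_134326) had a background-subtracted intensity of 165752 at the lowest, 183584 at the median and 260088 at the highest in liver, and of 107520, 120492 and 138437 in the reference. These ranges did not overlap before the dyes were balanced, but after normalization the ratios ran from -0.52 to 0.47 with a median of -0.03. The mean was -0.06 (SE 0.10, 95% interval -0.27 to 0.15, n = 8) and did not pass the test (limma adjusted p = 0.698). Its sign depended on the scaling, at 0.36 with median centring and 0.70 without dye normalization. Afp, its fetal counterpart (NM_012493), gave the opposite picture. Liver intensities were 5610, 7759 and 12630 at the lowest, median and highest, and the reference held 82357, 87738 and 94364. Every liver value lay below every reference value, and the mean ratio was -4.14 (SE 0.07), a 17.7-fold excess in the reference (limma adjusted p = 4.07e-11).

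H19, an imprinted noncoding RNA of fetal tissues (NR_027324), was the most unequal of the 5 marker genes. In liver its intensity ran from 3140 through a median of 3666 to 4969, and in the reference from 94583 through 113144 to 136228. The channels did not overlap, and the reference exceeded liver 46.5-fold (mean ratio -5.54, SE 0.05, limma adjusted p = 5.54e-13). Tnnc2 (NM_001037351) was dim in liver, at 143, 186 and 356, and brighter in the reference, at 2412, 2666 and 2866. Again no array overlapped, with a 14.9-fold excess in the reference (mean ratio -3.89, SE 0.05, limma adjusted p = 1.78e-11). Cyp2c11, the male-specific steroid 16-alpha-hydroxylase (NM_019184), went the other way, at 134157, 159153 and 328790 in liver against 43034, 54790 and 74973 in the reference. Its ratio was above 0 on all 8 arrays, from 0.55 to 1.497, and the mean was 0.95 (SE 0.09), a 1.93-fold excess in liver (limma adjusted p = 4.69e-05). The reference thus also held this adult male transcript, with Cy3 well above background on 8 of 8 arrays.

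**Figure D2:**
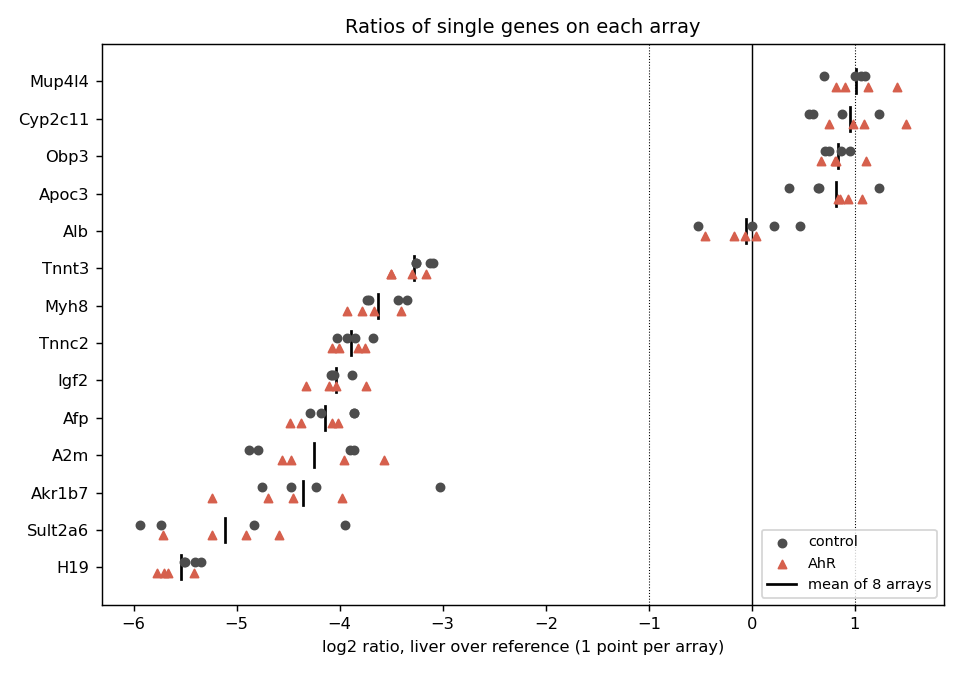
Log2 ratio of liver over reference for 14 genes (vertical), 1 point per array, circles for 4 control and triangles for 4 AhR arrays, with a bar at the mean of 8 arrays; dotted lines mark 2-fold. H19 lies between -5.77 and -5.34, and Alb straddles 0. The arrays of Sult2a6, from -5.94 to -3.95, and of Akr1b7, from -5.24 to -3.03, spread over the means of other genes.

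The 12 genes with the largest excess in adult liver included urinary protein genes, apolipoprotein genes and enzymes. Mup4l4, a major urinary protein gene, led with a mean of 1.01 (SE 0.07, 2.02-fold) and ratios from 0.70 to 1.41. Its second probe read 0.55. By its brightest probe, Mup4l4 was the single gene called higher. It lost that call with the scanner's processed signals (0.75), in the authors' deposited table (0.72), with plain background subtraction (0.92), with a normexp offset of 10 (0.97) and without control replicate 3 (1.00), control replicate 4 (0.99) or AhR replicate 4 (0.96). Its relatives Mup5 (1.00), Mup4l3 (0.89) and Mup4l1 (0.87) and the related Obp3 (0.83) also passed the test. These genes are close copies, and how far their probes cross-hybridise was not tested. Apoe, the apolipoprotein of remnant particles, had a mean of 0.94 (SE 0.07) and ran from 0.55 to 1.27. Mug1l1, of the murinoglobulin protease inhibitors, stood at 0.95 (SE 0.09). Acnat2, an acyltransferase that conjugates fatty acids to amino acids, stood at 0.87 (SE 0.09). The other genes of the 12 largest were Apoc3 (0.82), Dhrs7l1 (0.82), a short-chain dehydrogenase, and Ambp (0.81), the precursor of alpha-1-microglobulin. All 12 had ratios above 0 on every array, and all were brightly measured in the reference as well.

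After loess, hepatocyte marker genes had similar levels in both channels, with a small excess in liver for most. All 20 were measured, 14 were higher in liver, 1 was lower and 5 did not pass the test, against 9.77% and 13.9% of all genes, and 0 reached the 2-fold rule. Their median was 0.31 over genes, beside 0.00 for all genes tested, and the array medians ran from 0.24 to 0.47. Apoc3 (0.82), Ambp (0.81) and Apoa2 (0.78, SE 0.08) had the largest ratios, and Hp, which encodes the haemoglobin-binding haptoglobin, stood at 0.71 (SE 0.05). The fibrinogen genes Fga (0.44), Fgb (0.31) and Fgg (0.52) were all higher. The member that was lower was Apoa1, the main protein of high-density lipoprotein, at -0.35 (SE 0.07, limma adjusted p = 0.00543). Hnf4a, a master regulator of hepatocytes, was at 0.01 (SE 0.06). The size of the list's excess followed the scaling: its median was 0.09 with processed signals, 0.10 in the authors' deposited table, 0.74 with median centring and 1.09 without dye normalization.

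Enzymes that appear after birth were not in excess in adult liver as a list. Of 20 such genes, all measured, 3 were higher, 2 were lower and 15 did not pass, and 0 were called. Over all genes tested, 9.77% passed as higher and 13.9% as lower. The median was -0.02, and it was 0.26 with median centring and 0.61 without dye normalization. G6pc1, which releases glucose from glucose 6-phosphate, was higher at 0.52 (SE 0.11), and so was Hal, the histidine ammonia-lyase, at 0.41 (SE 0.07). Glul, the glutamine synthetase of pericentral hepatocytes, was lower at -0.45 (SE 0.10), as was the alcohol dehydrogenase gene Adh1c at -0.49 (SE 0.14). Cyp7a1, the rate-limiting enzyme of bile acid synthesis, varied so much between pools, from -1.84 to 0.71, that its mean of -0.75 (SE 0.26) did not pass (limma adjusted p = 0.0631). Tat, of amino acid breakdown, and Otc, of the urea cycle, had means of 0.10 and -0.09. The reference channel thus carried these postnatal transcripts too, with 20 of 20 well above background on all 8 arrays.

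Male-predominant liver genes were mostly higher in these male livers than in the reference. Of 15 genes, 13 were measured, and 11 of them passed the test as higher, beside 9.77% of all genes tested. All 13 had means above 0, and 0 were called. Their median was 0.58, and it stayed positive, between 0.45 and 1.27, under each alternative run. Obp3, an alpha-2u-globulin, had intensities of 364469, 408380 and 517084 in liver and 109771, 133144 and 163867 in the reference, with a mean ratio of 0.83 (SE 0.05). Stac3 stood at 0.74 (SE 0.09), the P450 gene Cyp2c13 at 0.63 (SE 0.07), the oxidase gene Hao2 at 0.63 (SE 0.08) and the steroid dehydrogenase gene Hsd3b5 at 0.58 (SE 0.10). Cyp3a2 (0.21, SE 0.14) and Cyp2c23 (0.10, SE 0.07) did not pass. This direction of the male list was already known when it was described here.

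Female-predominant liver genes split. Of 8 genes, 7 were measured, 2 were higher, 2 were lower and 3 did not pass, with a median of 0.03. The shares over all genes tested were 9.77% higher and 13.9% lower. Cyp2a1, a testosterone 7-alpha-hydroxylase, was the 1 called member, at intensities of 8118, 13259 and 17110 in liver and 15545, 18851 and 21229 in the reference. These ranges overlapped before normalization, while the ratios ran from -1.62 to -0.94, with a mean of -1.18 (SE 0.08). The call ended with median centring (-0.89) and without dye normalization (-0.54). Prlr, the prolactin receptor, was lower at -0.93 (SE 0.20). Cyp2c12, the classical female-specific P450, had a mean of -0.13 (SE 0.21) and a wide range, from -1.53 to 0.74, and did not pass. Cyp2c7 (0.49, SE 0.09) and Cyp3a9 (0.45, SE 0.12) were higher.

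Most fetal and oncofetal genes measured in both channels were lower in adult liver than in the reference. Of 20 listed, 13 had a matched probe, and 10 were measured, 9 of them in both channels on at least 4 arrays. Of these 9, 4 were called lower (H19, Afp, Igf2 and Mest), beside 0.992% of the 9982 genes measured so in both channels, and 7 passed as lower. Igf2, the fetal growth factor encoded beside H19, had intensities of 86.5, 118 and 156 in liver and 1805, 2022 and 2286 in the reference, a 16.4-fold excess (mean ratio -4.04, SE 0.06). Mest, another imprinted gene, stood at -1.26 (SE 0.06), and its call ended without dye normalization (-0.76). Ndn, encoding the imprinted protein necdin, stood at -0.96 (SE 0.04), the cell cycle inhibitor Cdkn1c at -0.72 (SE 0.06) and the surface proteoglycan Gpc3 at -0.39 (SE 0.06). Mdk, encoding midkine, was at 0.11 (SE 0.04) and did not pass. Dlk1, Hmga2 and Igf2bp1, which are also fetal, did not reach background in enough arrays of either channel. The median of the 9 was -0.96.

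Sult2a6, Akr1b7 and A2m were among the genes most in excess in the reference. Sult2a6 had 1680, 3993 and 6638 in liver and 66739, 76129 and 80430 in the reference. No array overlapped, although liver varied more, and the reference was 34.6-fold higher (mean ratio -5.11, SE 0.20). Akr1b7, an aldose reductase-like enzyme, had 21.5, 35.0 and 180 in liver against 1360, 1652 and 1740, a 20.5-fold difference (SE 0.18 on the log2 scale). A2m, the alpha-2-macroglobulin that rats make in the acute phase and during pregnancy, had 331, 742 and 1134 against 7882, 9475 and 10279, and both of its probes were low, at -4.25 and -4.02. Cyp17a1, the steroid 17-alpha-hydroxylase listed as an adrenal gene, was the only called member of the adrenal list, at -2.32 (SE 0.11). The other 3 measured adrenal genes were Th (-0.20), Pnmt (-0.20) and Cyp21a1 (0.02).

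Fast skeletal muscle genes were lower in liver. Of 20 fast-fibre genes, 18 had a probe and 17 were measured. Only 10 of these were above background in both channels on at least 4 arrays, and 9 of those 10 were called lower, with all 10 passing as lower, beside 0.992% and 12.9% of the 9982 genes so measured, and with a median of -2.94. The other 7 were kept by their Cy3 signal alone, so their direction was set by the filter. Myl11, a fast myosin light chain, had 168, 198 and 302 in liver and 2168, 2660 and 2982 in the reference (mean ratio -3.83, SE 0.06). Tnnt3, the fast troponin T, stood at -3.28 (SE 0.05), Tnni2, the fast troponin I, at -3.11 (SE 0.05), the muscle creatine kinase gene Ckm at -2.96 (SE 0.07) and the calcium pump gene Atp2a1 at -2.93 (SE 0.07). The skeletal actin gene Acta1 stood at -2.76 (SE 0.04). For each of these the 8 liver values lay below the 8 reference values.

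Genes of slow and of developing muscle joined in part. Among slow-fibre genes 7 were measured, 3 of them in both channels, and Myl3 was called at -3.06 (SE 0.07), while Tnnc1 (-0.71) and Tnnt1 (-0.58) passed as lower. Myh8, the perinatal myosin heavy chain, had 383, 431 and 550 in liver and 3487, 4177 and 4612 in the reference, a 12.4-fold excess (mean ratio -3.63, SE 0.07). Myh3, the embryonic heavy chain, was above background in 1 liver array and in 8 reference arrays, at medians of 18.1 and 253, and Actc1, the cardiac actin also used in fetal muscle, stood at -1.62 (SE 0.05). The myogenic factor gene Myog was at -0.15 (SE 0.05, limma adjusted p = 0.0453), and Myf5 (0.07) and Chrna1 (0.08) did not pass. Pax3, a factor of muscle progenitors, was higher, at 0.58 (SE 0.07). Over the 9982 genes measured in both channels on at least 4 arrays, 0.992% were called lower and 12.9% passed as lower. Among 7 heart genes measured in both channels, 3 passed as lower, of which Myl4 (-1.50) was called, and 1, Ryr2 (0.19), was higher. Sln, a regulator of the muscle calcium pump, was above background in 1 liver array and was kept by its Cy3 signal, at -2.58. In the same list the natriuretic peptide genes Nppa and Nppb, which define cardiac muscle, were below background on too many arrays of both channels to be tested. The probes of myosins and actins share sequence with their relatives, and cross-hybridisation was not tested.

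Most smooth muscle and matrix genes measured in both channels were lower as well. Actg2, the enteric smooth muscle actin, had 99.5, 133 and 342 in liver and 1578, 1856 and 1989 in the reference (mean ratio -3.66, SE 0.05), and its second probe read -3.90. Myh11, the smooth muscle myosin, was at -1.58 (SE 0.07) and Des, the intermediate filament desmin, at -1.26 (SE 0.05). The second probe of Myh11 read -0.89. Of 6 smooth muscle genes measured in both channels, 3 were called and 5 passed as lower, beside the same 0.992% and 12.9%. Among fibroblast and matrix genes 10 were measured in both channels, 1 was called and 7 passed as lower. The called gene was Col1a1, the collagen I chain, at -1.65 (SE 0.09). Its intensities were 481, 750 and 1250 in liver and 1438, 1703 and 1938 in the reference, with no overlap. The second probe of Col1a1 read -0.77, short of 2-fold. Col3a1 (-0.50), Dcn (-0.83) and Sparc (-0.46) were lower by less, and Fn1, which hepatocytes secrete as plasma fibronectin, was higher at 0.21 (SE 0.05). The median of the 10 was -0.49. Over all 12 measured matrix genes it was -0.47, and -0.02 without dye normalization. In bulk RNA, fewer cells of a type and less RNA per cell cannot be told apart.

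**Figure D3:**
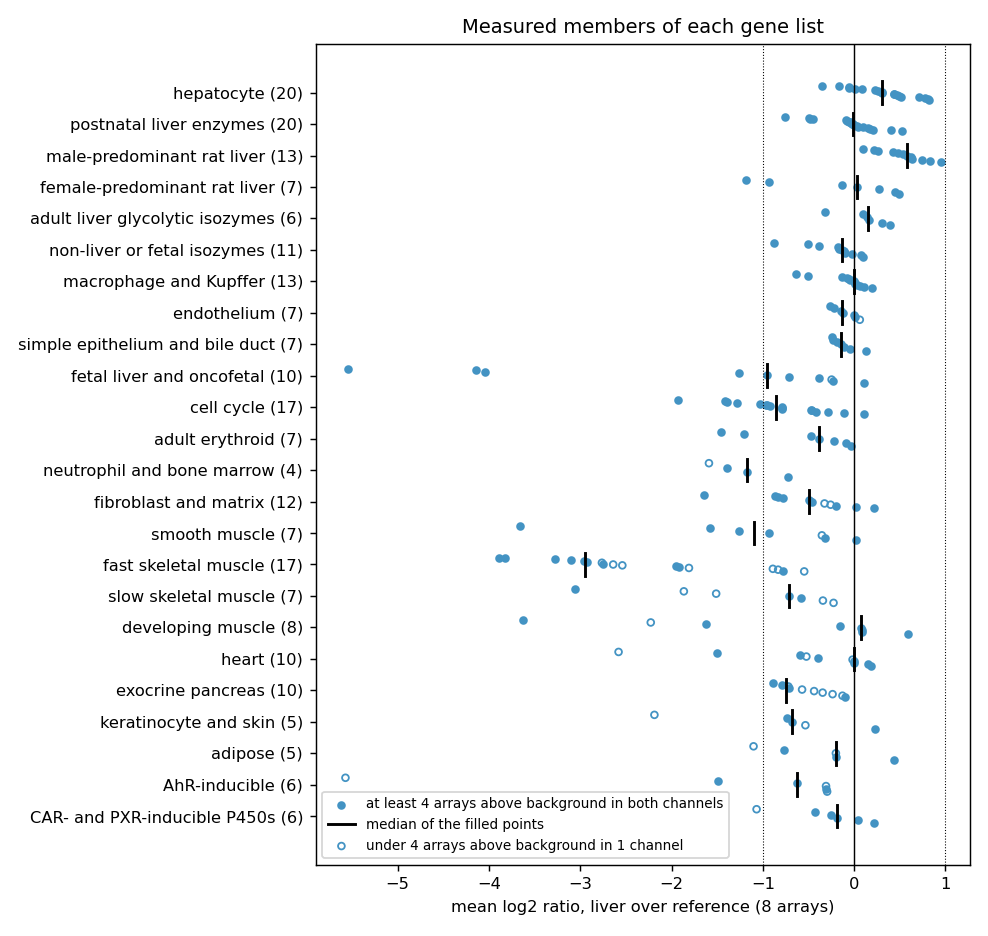
Mean log2 ratio of liver over reference (horizontal, 8 arrays) for each measured member of 24 gene lists, 1 point per gene, with the number of genes in brackets, open points for genes above background on fewer than 4 arrays of 1 channel, and a bar at the median of the other, filled points. Over the filled points, fast skeletal muscle has a median of -2.94 and the male-predominant genes have a median of 0.58.

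Most genes of dividing cells were lower in adult liver. Of 16 cell cycle genes measured in both channels, 5 were called and 14 passed as lower, beside 0.992% and 12.9% of all genes so measured. Cdk1, the kinase that drives entry to mitosis, had 159, 420 and 709 in liver and 882, 1062 and 1172 in the reference, without overlap (mean ratio -1.93, SE 0.15). Plk1 (-1.42), Ccna2 (-1.39), Rrm2 (-1.29) and Bub1 (-1.04), genes of mitosis and DNA synthesis, were the other called members. The second probe of Ccna2 read -1.34, and that of Rrm2 only -0.32. Ccnd1, a G1 cyclin, was at 0.11 (SE 0.08) and Tyms at -0.11 (SE 0.05), and neither passed. Of 7 measured genes of adult red cells, 3 passed as lower, beside 13.9% of all genes tested, and 4 did not pass. Ahsp, the haemoglobin chaperone, ran from -2.27 to 0.31 with a mean of -1.46 (SE 0.22), and Slc4a1, the anion exchanger of red cells, from -1.82 to -0.35 with a mean of -1.20 (SE 0.12). Hba-a1 (-0.04) and Hbb (-0.47), the globin genes, did not pass, nor did any of the 3 measured embryonic globins. The neutrophil genes S100a8 (-1.39, SE 0.15) and S100a9 (-1.17, SE 0.15) were called lower, and liver exceeded the reference for S100a9 on 1 array, at 0.04. Without dye normalization, Plk1, Ccna2, Rrm2, Bub1, Ahsp, Slc4a1, S100a8 and S100a9 were no longer called, at -0.99 to -0.63.

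Markers of other resident liver cells mostly did not pass the test. Over all genes tested, 13.9% passed as lower. All 13 macrophage and Kupffer cell genes were above background on all 8 arrays of both channels, 1 passed as lower (Cd163, -0.50, SE 0.09) and the rest did not pass, with a median of -0.00. Clec4f, the Kupffer cell lectin, had a mean of 0.19 (SE 0.11, 95% interval -0.04 to 0.43). Of 7 endothelial genes 2 passed as lower, Lyve1 (-0.26) and Tie1 (-0.14), and of 7 genes of simple epithelium and bile ducts 1 did, Krt7 (-0.25). The array medians of the macrophage list ranged widely, from -0.67 to 0.47.

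Most markers of several other organs were not above background on every array of either channel. None of the neuron, placenta, or prostate and seminal vesicle markers was above background on all 8 arrays of either channel, of 15, 7 and 4 genes with a probe. For lung 1 of 9 and for kidney 3 of 10 were so in Cy3, and the same numbers in Cy5. Surfactant genes Sftpa1, Sftpb and Sftpc, pituitary hormone genes Gh1 and Prl, and the milk protein gene Csn2 did not meet the filter. In several lists more genes were above background on all 8 arrays in Cy3 than in Cy5. Lymphocyte and thymus genes had 6 of 10 against 3, and mast cell genes 5 of 8 against 3. Their median ratios were 0.00 and -0.02, so a gap in these counts alone is not a difference in ratio. Over all named genes, 65.2% were above background on all 8 arrays in Cy3 and 60.8% in Cy5. Exocrine pancreas had 8 of 12 genes so in Cy3 against 4 in Cy5. In 3 of its genes Cy3 was above background on all 8 arrays and Cy5 on none. Keratinocytes had 5 of 7 genes against 2, with Krt14 at -0.69 (SE 0.04) and Krt1 at -0.74 (SE 0.05). Of the 3 keratinocyte genes measured in both channels, 2 passed as lower and 1 as higher, beside 13.9% and 9.77% of all genes tested. Adipose tissue had 4 of 7 against 3, with Fabp4 at -0.76 (SE 0.07). Of the 3 adipose genes measured in both channels, 1 passed as lower and 1 as higher. Ucp1, the thermogenic protein of brown fat, had a median intensity of 78.6 in the reference and was above background in 1 liver array. The adipose hormone genes Adipoq and Lep did not meet the filter.

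**Figure D4:**
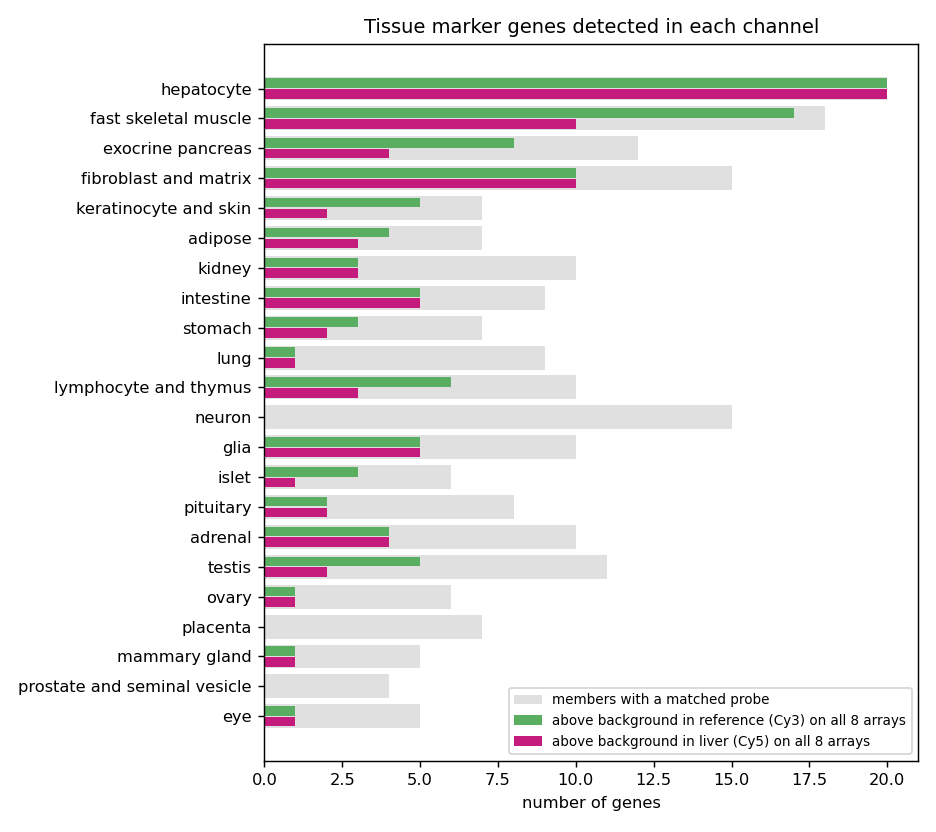
Number of marker genes (horizontal) of 22 tissues with a matched probe (grey) and with signal well above background on all 8 arrays in the reference channel (green) and in the liver channel (magenta). All 20 hepatocyte genes are found in both channels, fast skeletal muscle genes number 17 in the reference and 10 in liver, and 0 of 15 neuron genes are found in either. Over all named genes the shares are 65.2% in the reference and 60.8% in liver.

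Isozymes of sugar metabolism differed little. The shares of all genes tested that passed were 9.77% as higher and 13.9% as lower. Of 6 glycolytic and gluconeogenic isozymes of adult liver, 2 passed as higher, among them Fbp1 (0.31, SE 0.07), and the other 4 did not pass. Of 11 measured isozymes of other tissues or of fetal liver, Aldoc (-0.87, SE 0.09), Pfkm (-0.50, SE 0.08) and Aldoa (-0.38, SE 0.07), all forms used in brain or muscle, were lower. The 2 probes of Aldoc disagreed in size, at -0.87 and -0.13. The median of the second list was -0.13, and it turned to 0.24 without dye normalization.

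Some transcripts could be read in the reference alone. In 68 of 15154 named genes (0.449%) Cy3 was well above background on all 8 arrays and Cy5 on none, and the reverse was found for 0 genes (0%). In all, 9873 genes (65.2%) were above background on every array in Cy3 and 9215 (60.8%) in Cy5. The median local background of an array was 71 to 76 in Cy5 and 19 to 24 in Cy3. How far this difference in background sets these counts was not tested. For the 68 genes a fold is a lower bound, with liver set no lower than the dimmest signal well above background on its array. The bound was at least 2-fold for 17 of the 68. Casq1, the calcium store protein of fast muscle, had a median intensity of 352 in the reference and 11.1 in liver and was at least 6.78-fold higher in the reference. Myh1 (at least 6.16-fold higher) and Myh2 (at least 3.48-fold), fast myosin heavy chains, Csrp3 (at least 5.49-fold), the muscle LIM protein, Cav3 (at least 2.26-fold), the muscle caveolin, Sypl2 (at least 4.16-fold), of the muscle triad, and Mybpc1 (at least 3.64-fold), a slow myosin-binding protein, are muscle genes too. The 2 probes of Casq1 read mean ratios of -2.76 and -1.02, and those of Myh2 -1.81 and -0.60. The others of the 12 with the largest bounds were Krt15 (at least 4.56-fold), a basal keratin, Cyp2a3 (at least 3.40-fold), a P450 of lung and nose, the defensin gene Np4 (at least 3.00-fold), Abcd2 (at least 2.62-fold), a peroxisomal transporter, and the proteoglycan gene Gpc1 (at least 2.27-fold).

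Genes that respond to foreign chemicals through AhR were also examined. Of 8 such genes 6 were measured. Among the 3 measured in both channels on at least 4 arrays, Cyp1a2 was called lower, and Cyp1a2 and Nqo1 passed as lower. Of the 9982 genes so measured, 0.992% were called lower and 12.9% passed as lower. The median of these 3 AhR-responsive genes was -0.63. The other 3 of the 6, Cyp1a1 among them, were kept by their Cy3 signal. Cyp1a1, the most inducible AhR target, had a liver intensity of 3.00 at the lowest, 12.1 at the median and 144 at the highest, and was above background on 3 of 8 arrays. In the reference it had 2572, 3192 and 3734, and no array overlapped. It was at least 45.9-fold higher in the reference, and its fitted mean ratio of -5.57 (SE 0.20) rests on liver values near background. Cyp1a2, its constitutive hepatic partner, was bright in both channels, at 6802, 12804 and 14756 in liver and 16242, 20412 and 26307 in the reference, and was called lower at -1.50 (SE 0.12), though not without dye normalization (-0.85). Nqo1, a quinone reductase, was lower at -0.63 (SE 0.10), and Ugt1a6, a glucuronosyltransferase, at -0.30 (SE 0.12) did not pass. Among P450s and transporters induced through the receptors CAR and PXR, 6 were measured. Abcc3, an efflux transporter, was not above background in liver on any array and was at least 2.09-fold higher in the reference. Cyp2b2 was lower at -0.43 (SE 0.07), and its 2 probes read -2.08 and -0.43. Por, Cyp2c6v1, Cyp3a23-3a1 and Cyp3a2, with means from -0.26 to 0.21, did not pass.

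The ratios of control and AhR livers were also set against each other. Limma called 0 of 19276 probes (0%) between the groups, with a lowest adjusted p of 1.00 and 319 probes at an unadjusted p under 0.05. The lowest adjusted p over the alternatives was 0.236, without control replicate 4. Values are given as mean ± SD over the 4 arrays of a group. The mean of H19 was -5.44 ± 0.08 for control and -5.64 ± 0.16 for AhR arrays, a difference of -0.20 (SE 0.10, exact two-sided permutation p = 0.0857). Afp had -4.05 ± 0.22 and -4.24 ± 0.22, a difference of -0.19 (SE 0.14, exact permutation p = 0.286). Cyp2c11 had 0.82 ± 0.31 and 1.08 ± 0.31, a difference of 0.26 (SE 0.18, exact permutation p = 0.286), Tnnc2 differed by -0.04 (SE 0.11) and Alb by -0.20 (SE 0.19). Actg2 and Myh11 were picked here after their values were seen, because their groups did not overlap. The share of all genes whose groups do not overlap is not given here, so these 2 are examples only. Actg2 stood at -3.81 ± 0.15 for control and -3.51 ± 0.12 for AhR arrays (difference 0.30, SE 0.10), and Myh11 at -1.80 ± 0.28 and -1.35 ± 0.14. Both had an exact permutation p of 0.0286, the smallest that 4 against 4 can give. None of these genes passed limma's adjustment over all probes. The list medians in control and AhR arrays were 0.34 and 0.31 for hepatocytes, and 0.59 and 0.62 for the male-predominant genes.

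The channels differ by design in what varies between arrays: Cy3 held 1 RNA on all 8, while each Cy5 channel held another pool of rats. The values below describe that spread. Over 9197 genes measured in both channels on all 8 arrays, the SD of log2 intensity between arrays had a median of 0.157 in Cy5 and 0.0720 in Cy3, and Cy5 varied more for 94.3% of them. In Cy5 146 genes had an SD above 0.5, and in Cy3 0 did. Dbp, an output gene of the circadian clock, had the largest SD in liver, 1.33, with log2 intensities from 11.2 to 14.9, while its reference values ran from 13.4 to 13.6. Nr0b2, a repressor of bile acid synthesis, had an SD of 1.19 in liver and 0.0907 in the reference, and Onecut1, a liver transcription factor, 1.08 and 0.0572. Bcl6 (1.03), a repressor that acts in male liver, and Akr1c2 (1.24), an aldo-keto reductase, also varied by pool.

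**Figure D5:**
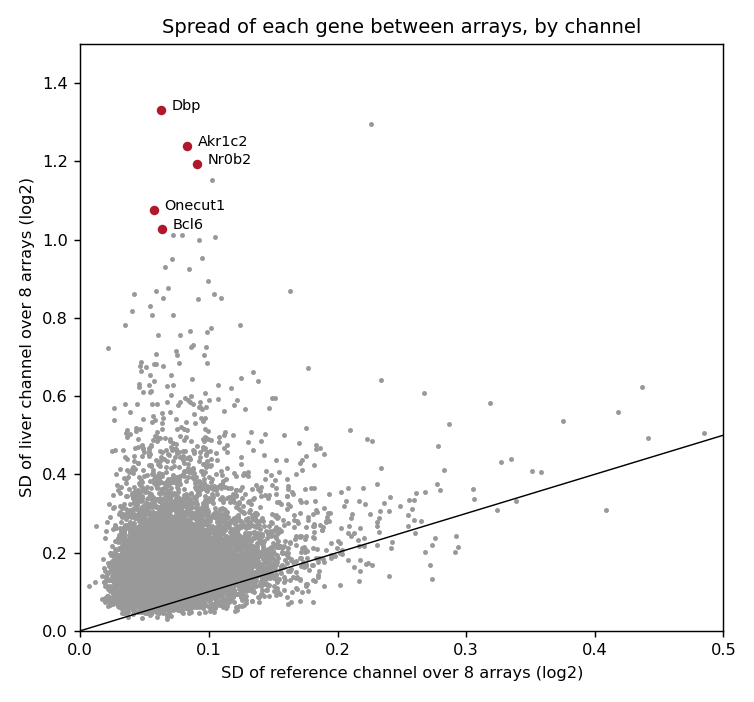
Standard deviation between 8 arrays of each gene's log2 intensity in the liver channel (vertical) against the reference channel (horizontal), 1 point per gene, 9197 genes, with the line of equal spread and 5 genes named. Points above the line, 94.3% of them, vary more between liver pools than the reference does between arrays, and Dbp is the highest at 1.33.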

How the data were processed

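The authors deposited 1 Agilent scanner file per array, with intensity values for the median signal of every spot and for the background around it. Per the file headers, the software was Feature Extraction (Agilent), version 10.7.3.1, and it also wrote processed intensities with background subtracted and dyes balanced. The authors also deposited a table of log2 values of unstated scale; its columns had medians of 0.00569 to 0.0165, followed the ratios computed here (r = 0.990 to 0.994 across probes, slope 1.02 to 1.05) and ran as Cy5 over Cy3. Its exact dye correction stays unknown. All columns of that table matched a sample.

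In limma 3.58.1 under R 4.3.3, the normexp background correction used an offset of 50, and loess normalized each array, with control and outlier-flagged spots at weight 0. Of 62976 spots, 4259 were controls, and the rest were averaged to 30367 probes. The filter kept probes that exceeded background clearly, in either channel, on 4 or more of the 8 arrays, and 2 with a missing value were left out. The mean of the control and AhR coefficients was tested against 0 (lmFit, eBayes, Benjamini-Hochberg). Loess sets the bulk of probes of similar brightness to 0, so ratios are relative to it. RefSeq accessions named 18004 probes of 15154 genes through the RefSeq table of assembly GRCr8. The array's own design used an older genome build, so no gene coordinates are given beyond the upstream windows.

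The genes, the 47 gene lists and the comparison were chosen with earlier results of these data known. Named genes were the 5 markers, the 12 of largest ratio in each direction among genes above background in both channels on at least 4 arrays, the 12 of largest bound among genes above background in the reference alone, and the 3 members of largest absolute ratio in a list, with more for the hepatocyte, postnatal, male, female, fetal, muscle and red cell lists; not all of these are printed, and members outside the rule were picked for their role. Genes of the X-inactivation transcript and Y-linked lists had no matched probe and are not analysed here. Genes in the paragraph on channel spread were picked with their values in view. Tests on simulated data preceded the fit. Alternatives covered background correction, signal, dye normalization, filter, threshold, group, replicate block and each array left out. The number of arrays limits the precision. A few list members are not reported here.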

Additional observations from a re-analysis of the deposited data

Results flagged for a closer look

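In a group of 4 arrays, a single array was set apart where its gap to the nearest other exceeded the 95% critical value of Dixon's ratio. Over 69 genes and 138 groups, 9 were set apart, and chance sets apart about 1 in 20. Igf2 was at -3.88 on control replicate 1, with the other control arrays between -4.09 and -4.06. Cyp2a1 was at -1.62 on control replicate 2 (others -1.06 to -0.95). S100a8 was at -0.23 on the same control replicate 2 (others -1.89 to -1.65). Col1a1 was at -1.17 on control replicate 3 (others -1.95 to -1.91), Ucp1 at -0.54 on control replicate 4 (others -1.16 to -1.09) and Cyp1a1 at -4.28 on control replicate 1 (others -5.83 to -5.79). Among AhR arrays, Slc4a1 was at -1.82 on replicate 3 (others -1.24 to -1.15), Des at -1.07 on replicate 1 (others -1.26 to -1.25) and Bub1 at -1.30 on replicate 1 (others -1.14 to -1.11).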

How the results depend on the processing

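The 169 probes lower in liver became 446 with plain background subtraction, 278 with a normexp offset of 10, 513 with the scanner's processed signals, 92 without dye normalization, 96 with the 2-fold limit inside the test (treat) and 2610 at adjusted p alone, which was added with the data in view. The 1 higher probe became 19, 3, 40, 302, 0 and 1734 under these settings in the same order, 44 with median centring, 0 in the authors' deposited table and 5 on AhR arrays alone. Leaving out 1 array gave 0 to 2 higher and 161 to 175 lower probes. No higher call was made when control pool 3 or 4 was dropped, and Mup4l4 lost its call without AhR pool 4 too, where the count stayed at 1. There were 2 higher calls when control pool 1 or 2 or AhR pool 1 or 3 was dropped. Between AhR and control the count was 0 under each alternative run. With the replicate number as a block the counts were 1 and 169, as without it. Same-numbered control and AhR arrays correlated at -0.36 to 0.05 in their deviations. These values show no clear shared spread between same-numbered arrays, but they cannot settle whether the pools were paired.

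The causes of these changes were not tested. Alb turned to 0.36 with median centring and 0.70 without dye normalization. Medians over all measured members of a list that turned without dye normalization were those of non-liver or fetal isozymes (0.24), heart (0.078), intestine (0.16) and adipose (0.044). On control arrays alone Ahsp (-1.11), S100a9 (-1.07), Ucp1 (-0.98), Rrm2 (-1.07) and Bub1 (-0.90) lost their calls, and Mup4l4 did so at 0.96. Normexp with its offset draws the ratios of dim probes toward 0, and where liver was near background the ratio is a limit of the signal.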

Other observations

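Of the 130 genes called lower in liver, 46 belonged to a fixed list and 84 did not; 124 of the 130 had ratios below 0 on all 8 arrays. The genes below were picked from the 84 after their values were seen. Among them are muscle genes: Cox6a2 (-2.999), the muscle form of a respiratory chain subunit, Apobec2 (-2.89), the myoglobin gene Mb (-2.14), and the muscle enolase and phosphoglycerate mutase genes Eno3 (-2.04) and Pgam2 (-1.86). The mitochondrial creatine kinase gene Ckmt2 (-1.70) and the deaminase gene Ampd1 (-1.64) were above background in liver on 3 of 8 arrays, Pgam2 on 4, Cox6a2 on 5 and Apobec2 on 6, so these ratios rest in part on liver values near background. Others serve cell division, such as Cdca3 (-1.50), Pttg1 (-1.16), Ube2c (-1.12), Tk1 (-1.08) and Spc25 (-1.06). Elastic fibre genes were among them too: Eln (-1.97), which encodes elastin, Mfap5 (-1.61) and Fbn2 (-1.58). The second probe of Eln read -0.11.

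Further genes of metabolism and growth control in the same set were Igfbp2 (-2.93), which encodes an insulin-like growth factor binding protein, Slc39a5 (-2.76), a zinc transporter, Alox15 (-2.63), a lipoxygenase, and Acsm5 (-2.47), a medium-chain acyl-CoA synthetase. The second probe of Acsm5 read -1.03. Phgdh (-1.52) and Psat1 (-1.37), successive enzymes of serine synthesis, were lower, as was Tfrc (-1.81), the transferrin receptor. The second probe of Tfrc read -0.79. Sqle (-1.07) and Hsd17b7 (-1.02), of cholesterol synthesis, and Abcg5 (-1.13), of sterol export into bile, were also called lower.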
